A study of Mus musculus with 18 samples.

Results

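The mRNAs of 9 transcription factors that set the identity of macrophages and dendritic cells were followed in sorted synovial macrophages: *Spi1*, *Cebpa*, *Cebpb*, *Maf*, *Klf4*, *Zeb2*, *Irf8*, *Irf4* and *Zbtb46*. They were taken by symbol from the 24421 genes listed for every library, and all 9 were found. Total RNA was sequenced from macrophages of the synovium of adult wild-type C57BL/6 mice, either untreated or 8 h after an intravenous injection of immune complexes (ICs) of ovalbumin and rabbit antibodies to it. In each condition 3 subsets were sorted by surface protein: LYVE1+CX3CR1+ macrophages, which form the synovial lining, and the MHCII+CD11c- and MHCII+CD11c+ macrophages. Each of the 6 groups had 3 libraries, 18 in all, and each library came from cells of several mice. The untreated mice stood as the control for IC.

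PU.1 (*Spi1*) and C/EBPα (*Cebpa*) open the myeloid program in progenitors, and C/EBPβ (*Cebpb*) is linked to the survival and the inflammatory genes of mature macrophages. c-MAF (*Maf*) supports the program of resident macrophages, including complement C1q, while KLF4 (*Klf4*) and ZEB2 (*Zeb2*) act in monocyte and macrophage differentiation. IRF8 and IRF4 are related factors that bind DNA together with PU.1 and steer dendritic cell and macrophage fates, IRF4 also taking part in the response to IL-4, and ZBTB46 marks conventional dendritic cells.

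In the mouse genome (RefSeq, GRCm38.p6, the patched form of the mm10 build of the files), *Spi1* lies at chr2:91082374-91115759, *Cebpb* at chr2:167688915-167690432, *Zeb2* at chr2:44983512-45117442 and *Zbtb46* at chr2:181371009-181493262. *Cebpa* lies at chr7:35119293-35121928, *Maf* at chr8:115703253-115706894, *Irf8* at chr8:120736358-120756694, *Irf4* at chr13:30749233-30766981 and *Klf4* at chr4:55527137-55532475. On the opposite strand, *Tmem189* shares 312 bp of exon with *Cebpb*, and *Zeb2os* shares 653 bp with *Zeb2*. The strand setting of the counting is not given in the sources used here, so the counts of *Cebpb* and *Zeb2* could hold reads of these neighbours. Antisense genes that are not listed in the files share 440 bp of exon with *Maf* and 51 bp with *Cebpa*.

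Promoters are shown for 3 members that differed in opposite directions between the subsets, *Irf4* against *Cebpa* and *Klf4*. Each is the 250 bases before the RefSeq start, read 5′ to 3′ on the strand of the gene. Capitals mark matches, on either strand, to short motifs of the members' families: GAGGAA (the PU.1 core), TTGCNNAA (C/EBP), CCACCC (KLF), CACCTG (ZEB) and TGCTGA (MAF).
Irf4, chr13:30748983-30749232, plus strand: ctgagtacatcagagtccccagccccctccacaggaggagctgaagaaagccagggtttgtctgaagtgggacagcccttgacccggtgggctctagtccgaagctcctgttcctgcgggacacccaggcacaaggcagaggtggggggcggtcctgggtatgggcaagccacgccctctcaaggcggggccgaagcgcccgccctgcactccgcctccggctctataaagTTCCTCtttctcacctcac
Cebpa, chr7:35119043-35119292, plus strand: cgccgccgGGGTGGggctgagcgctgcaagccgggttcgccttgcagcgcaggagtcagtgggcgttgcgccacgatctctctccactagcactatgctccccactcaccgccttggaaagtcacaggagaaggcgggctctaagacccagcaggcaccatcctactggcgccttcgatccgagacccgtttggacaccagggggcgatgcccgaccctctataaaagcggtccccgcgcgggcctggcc
Klf4, chr4:55532476-55532725, minus strand: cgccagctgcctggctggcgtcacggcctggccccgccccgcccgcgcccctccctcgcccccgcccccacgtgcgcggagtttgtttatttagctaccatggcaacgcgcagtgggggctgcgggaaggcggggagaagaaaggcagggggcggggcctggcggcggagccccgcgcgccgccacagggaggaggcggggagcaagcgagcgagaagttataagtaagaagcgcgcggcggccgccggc
The *Irf4* promoter held 1 match to the PU.1 core, close to the start, and 23.3% of all 32841 mouse promoter windows of this length held at least 1 such match. The *Cebpa* promoter held 1 match to the KLF motif, which 28.1% of the windows held. The letters of the other motifs, held by 9.57% (C/EBP), 17.2% (ZEB) and 16.1% (MAF) of the windows, are not in these promoters, and the *Klf4* window held no match to any of the motifs. A match is a description of the letters and not a bound site.

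Library totals ranged from 245903 to 2172358 counts, the lowest being MHCII+CD11c- IC replicate 2. All 8 macrophage markers were detected in every group. They summed to 8080 to 9645 CPM (counts scaled to library size) in LYVE1+CX3CR1+, 4676 to 6796 in MHCII+CD11c- and 4099 to 4841 in MHCII+CD11c+ libraries. The 11 markers of conventional dendritic cells summed to 780.3 to 925 CPM in MHCII+CD11c+ libraries, 251 to 434 in MHCII+CD11c- and 59.8 to 94.1 in LYVE1+CX3CR1+, where *Ccr7* was at 0 in all 6 libraries. The 7 B cell markers summed to 204 to 354 CPM in MHCII+CD11c-, 63.1 to 96.0 in MHCII+CD11c+ and at most 2.11 in LYVE1+CX3CR1+. The 9 neutrophil markers listed summed to at most 148 CPM in LYVE1+CX3CR1+ and to 129 to 3559 CPM in the MHCII+ libraries, with none at 0 in any MHCII+ group. In such bulk samples, fewer cells of a type and less RNA per cell cannot be told apart.

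Levels are CPM scaled by TMM, edgeR's correction for library composition, and are compared only between groups for the same gene. A gene was called when its adjusted p in edgeR's quasi-likelihood test, over all 10550 genes tested, was under 0.05. All 9 members passed the filter on low counts, *Zbtb46* mainly through the subset where it was high. In raw counts it reached 10 in 5 of the 6 MHCII+CD11c+ libraries and in 1 of the other 12, while the filter itself works on CPM. The *Zbtb46* calls between MHCII+CD11c+ and the other subsets are thus no independent result. They are held in the counts of members called below. The pairwise comparisons of subsets share groups and are not independent of each other.

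The first question was which factors set the untreated subsets apart. The widest contrast was between LYVE1+CX3CR1+ and MHCII+CD11c+ macrophages: *Maf*, *Cebpa*, *Klf4* and *Cebpb* were 1.43- to 2.29-fold higher in LYVE1+CX3CR1+, and *Irf4* and *Zbtb46* were 3.07- and 5.19-fold higher in MHCII+CD11c+. These were 6 of 9 members, where 21.8% of all genes were called. Between LYVE1+CX3CR1+ and MHCII+CD11c- 1 of 9 was called, *Irf4*, against 11.4% of all genes, and between MHCII+CD11c+ and MHCII+CD11c- 1 of 9, *Maf*, against 3.49%. The libraries of the groups did not overlap for 7, 6 and 6 members in these comparisons, in the same order, and for 41.3%, 28.9% and 22.3% of all genes. The median log2 fold change of the 9 members was 0.19, 0.09 and -0.42, beside -0.02, -0.02 and -0.01 for all genes. Of 8 macrophage markers, 5 were higher and 0 lower in LYVE1+CX3CR1+ than in MHCII+CD11c+ (median log2 0.61). Against MHCII+CD11c-, 1 was higher in LYVE1+CX3CR1+ (median log2 0.24) and 1 lower in MHCII+CD11c+ (median log2 -0.47). Their part in the differences of the members was not tested.

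**Figure D1:**
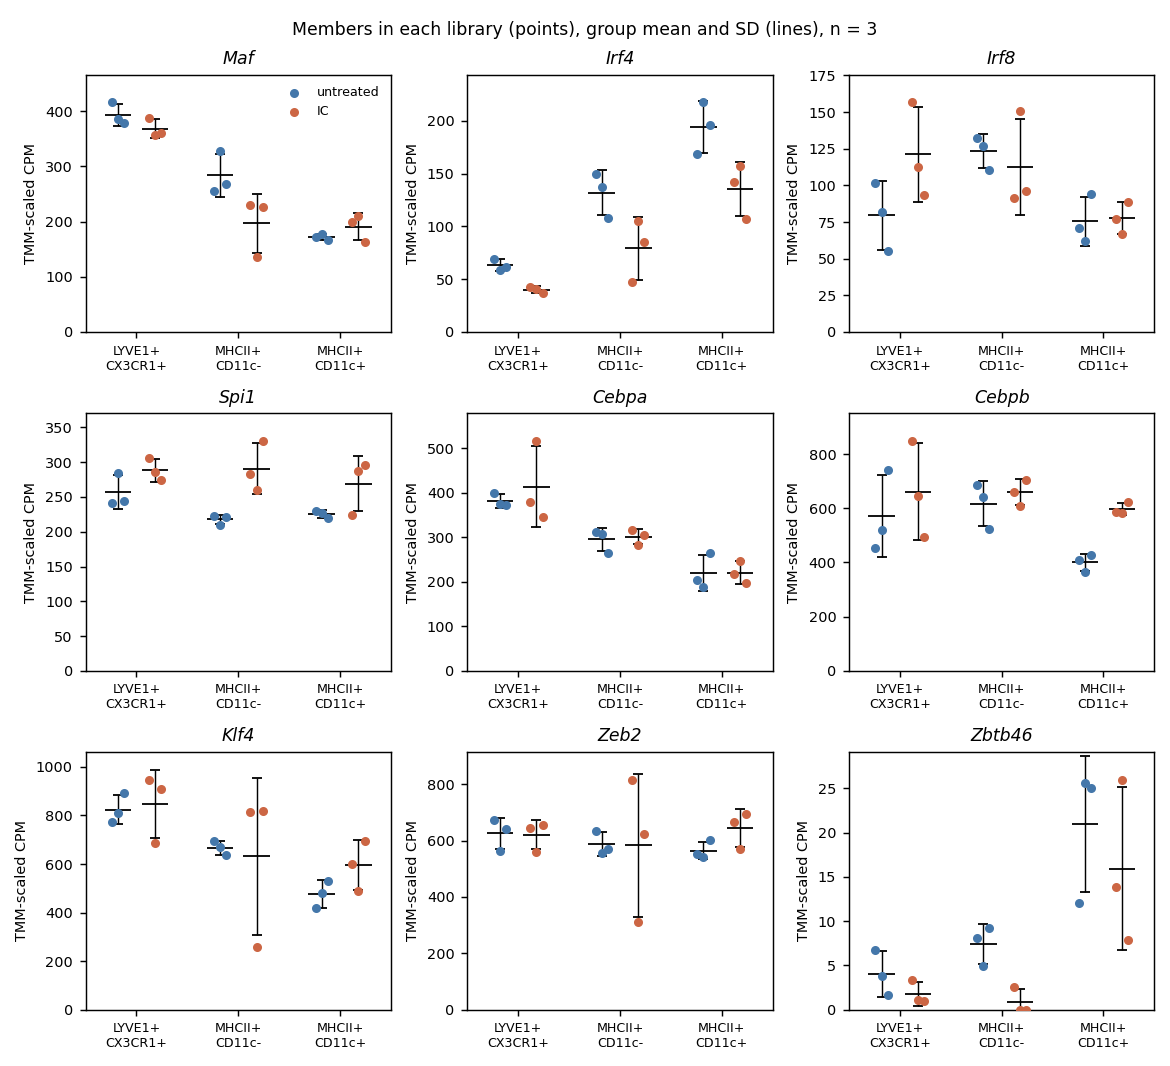
Levels of the 9 members (TMM-scaled CPM, vertical axes) in each of the 18 libraries, by sorted subset and by treatment, with the mean and SD of 3 libraries. The mean of *Maf* was 394, 284 and 172 CPM in untreated LYVE1+CX3CR1+, MHCII+CD11c- and MHCII+CD11c+ macrophages, that of *Irf4* 63.2, 132 and 194 CPM, and 1 MHCII+CD11c- IC library lay apart from its group for *Klf4* and *Zeb2*.

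*Maf*, untreated, stood at 416, 386 and 378 CPM in LYVE1+CX3CR1+, 256, 329 and 268 in MHCII+CD11c- and 172, 178 and 166 in MHCII+CD11c+. No library of a subset overlapped another subset. The level in LYVE1+CX3CR1+ was 2.29-fold that in MHCII+CD11c+ (log2 1.20 ± 0.17 SE, adjusted p = 5.66e-06), and MHCII+CD11c+ lay 1.65-fold under MHCII+CD11c- (log2 -0.72 ± 0.17, adjusted p = 0.0140). The neighbours LYVE1+CX3CR1+ and MHCII+CD11c- did not differ past the threshold (log2 0.47 ± 0.17, adjusted p = 0.0724), but did without MHCII+CD11c- untreated replicate 2 (adjusted p = 0.0495) or MHCII+CD11c- IC replicate 2 (0.0146), and also with library totals (0.0353), DESeq2 (0.0180), at least 10 counts in every library (0.0378) or only the libraries compared (0.0454). The call between the MHCII+ subsets was lost without MHCII+CD11c- untreated replicate 2 (adjusted p = 0.104) or MHCII+CD11c+ untreated replicate 2 (0.0504) or 3 (0.0767).

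Over the 18 libraries the profiles nearest to that of *Maf* were those of *Rab11fip5* and *Grn*, the latter the progranulin gene, at root mean square differences of 0.15 and 0.17 in log2 CPM, where *Maf* itself varied by 0.50 around its mean.

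*Cebpa*, the C/EBPα gene, stood at 400.3, 374 and 372 CPM in untreated LYVE1+CX3CR1+ macrophages and at 205, 189 and 265 in MHCII+CD11c+, without overlap. The difference was 1.74-fold (log2 0.80 ± 0.17, adjusted p = 7.98e-04). MHCII+CD11c-, at 313, 308 and 265 CPM, differed from neither past the threshold (adjusted p = 0.179 against LYVE1+CX3CR1+ and 0.198 against MHCII+CD11c+).

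*Klf4*, a factor of monocyte differentiation, had the same order of means, with 774, 809 and 891 CPM in LYVE1+CX3CR1+, 694, 669 and 635 in MHCII+CD11c- and 418, 482 and 529 in MHCII+CD11c+. The 3 groups did not overlap, and the outer pair differed by 1.73-fold (log2 0.79 ± 0.24, adjusted p = 0.0179). That call was lost without MHCII+CD11c+ untreated replicate 1 (adjusted p = 0.0759) or LYVE1+CX3CR1+ untreated replicate 3 (0.0665). The difference between the MHCII+ subsets was not called (adjusted p = 0.335), except without MHCII+CD11c- IC replicate 2 (0.0417) or with only the libraries compared (0.0439).

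*Cebpb* had another order. Its untreated levels were 687, 642 and 524 CPM in MHCII+CD11c-, 455, 518 and 742 in LYVE1+CX3CR1+ and 408, 366 and 429 in MHCII+CD11c+. The MHCII+CD11c+ libraries lay under all others. The LYVE1+CX3CR1+ level was 1.43-fold that in MHCII+CD11c+ (log2 0.51 ± 0.18, adjusted p = 0.0480), and MHCII+CD11c- lay 1.54-fold over MHCII+CD11c+, not past the threshold (adjusted p = 0.0629). The first call was narrow: it was lost in 10 of 18 fits that each left out 1 library, with the highest adjusted p, 0.368, and a log2 difference of 0.29 without LYVE1+CX3CR1+ untreated replicate 3. The second was past the threshold without LYVE1+CX3CR1+ untreated replicate 3 (adjusted p = 0.0491) or MHCII+CD11c- IC replicate 2 (0.0314), and also with library totals (0.0495), DESeq2 (0.0243), no filter (0.0249), at least 10 counts in every library (0.0311), only the libraries compared (0.0174) or a block for pools of mice (0.0448). That block assumes that libraries of the same number and treatment share a pool, which is not labelled. The neutrophil markers, of cells that also express *Cebpb*, summed to 692 to 1513 CPM in MHCII+CD11c-, 129 to 558 in MHCII+CD11c+ and 18.9 to 24.8 in LYVE1+CX3CR1+, and their part in the *Cebpb* levels was not tested.

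*Irf4*, untreated, stood at 69.4, 58.3 and 61.9 CPM in LYVE1+CX3CR1+, 150.0, 137 and 108 in MHCII+CD11c- and 169, 218 and 196 in MHCII+CD11c+. The order was the reverse of that of *Maf*, again without overlap. LYVE1+CX3CR1+ lay 2.08-fold under MHCII+CD11c- (log2 -1.06 ± 0.22, adjusted p = 0.00173) and 3.07-fold under MHCII+CD11c+ (log2 -1.62 ± 0.21, adjusted p = 2.04e-06), and both calls held in all 18 fits that left out a library. The MHCII+ subsets did not differ past the threshold (log2 0.56 ± 0.21, adjusted p = 0.158). The dendritic cell markers were in the same order (sums of 63.0 to 68.7, 351 to 434 and 780.3 to 925 CPM), while the B cell markers, of cells that also express *Irf4*, were highest in MHCII+CD11c-. The part of such cells in the *Irf4* levels was not tested.

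*Irf8* was called between no pair of untreated subsets. It stood at 132, 127 and 110.3 CPM in MHCII+CD11c-, 102, 82.1 and 54.9 in LYVE1+CX3CR1+ and 70.9, 61.8 and 94.0 in MHCII+CD11c+. The MHCII+CD11c- libraries lay above all others, 1.55-fold over LYVE1+CX3CR1+ (adjusted p = 0.102) and 1.62-fold over MHCII+CD11c+ (adjusted p = 0.124). The B cell markers, of cells that also express *Irf8*, were likewise highest in MHCII+CD11c-, with sums of 204 to 304 CPM, and their part was not tested.

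The log2 ratio of *Irf4* to *Irf8* counts within a library averaged 1.37 ± 0.39 (SD, n = 3) in MHCII+CD11c+, 0.09 ± 0.10 in MHCII+CD11c- and -0.29 ± 0.40 in LYVE1+CX3CR1+. No test was made on this ratio, of which only the differences between groups can be read, since the genes differ in length.

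*Zbtb46*, the dendritic cell factor, was scarce. It had 23, 39 and 52 counts in the untreated MHCII+CD11c+ libraries (12.1, 25.6 and 25.1 CPM), 7, 4 and 9 counts in MHCII+CD11c- (8.14, 4.89 and 9.19 CPM) and 10, 6 and 3 counts in LYVE1+CX3CR1+ (6.74, 3.76 and 1.62 CPM). Every MHCII+CD11c+ library lay above all of the others. MHCII+CD11c+ was 5.19-fold over LYVE1+CX3CR1+ (adjusted p = 0.00757), a call lost without LYVE1+CX3CR1+ untreated replicate 3 (adjusted p = 0.0573), and 2.78-fold over MHCII+CD11c-, which was not called (adjusted p = 0.238). Of 11 dendritic cell markers 7 were tested, and 7 were lower in LYVE1+CX3CR1+ than in MHCII+CD11c+, where 21.8% of all genes were called. In MHCII+CD11c+ 5 (*Flt3*, *Dpp4*, *Cd24a*, *Naaa* and *Fscn1*) were higher than in MHCII+CD11c-, where 3.49% of all genes were called. In untreated LYVE1+CX3CR1+, 6 of the 11 had at most 3 counts in every library. Markers so low there pass the filter only through other groups, so the 7 of 7 is no independent result. The part of dendritic cells in the *Zbtb46* counts was not tested.

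*Spi1* and *Zeb2* were called between no untreated subsets. *Spi1* ranged from 210.3 to 285 CPM over the 9 libraries, with the LYVE1+CX3CR1+ libraries above the others, and its widest difference was 1.18-fold, between LYVE1+CX3CR1+ and MHCII+CD11c- (log2 0.24, 95% interval -0.08 to 0.55, adjusted p = 0.395). *Zeb2* ranged from 543 to 672 CPM with overlap between all groups, and its widest difference was 1.11-fold, between LYVE1+CX3CR1+ and MHCII+CD11c+ (log2 0.15, 95% interval -0.26 to 0.56, adjusted p = 0.688).

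The same comparisons were made among the subsets 8 h after IC. *Maf* and *Cebpa* were again higher in LYVE1+CX3CR1+ than in MHCII+CD11c+ macrophages and *Irf4* and *Zbtb46* lower, 4 of 9 members against 19.7% of all genes. Against MHCII+CD11c-, LYVE1+CX3CR1+ had higher *Maf* and lower *Irf4*, 2 of 9 against 9.77%. Between MHCII+CD11c+ and MHCII+CD11c- only *Zbtb46* was called, which passed the filter mainly through MHCII+CD11c+, 1 of 9 against 2.84%. The libraries did not overlap for 5, 3 and 4 members, and for 38.0%, 25.1% and 16.8% of all genes. The member medians were 0.15, 0.15 and -0.11 on the log2 scale, beside -0.04, -0.01 and 0.00 for all genes, and the second was 0.07 with *Zbtb46* in MHCII+CD11c- set to what 3 counts would give.

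**Figure D2:**
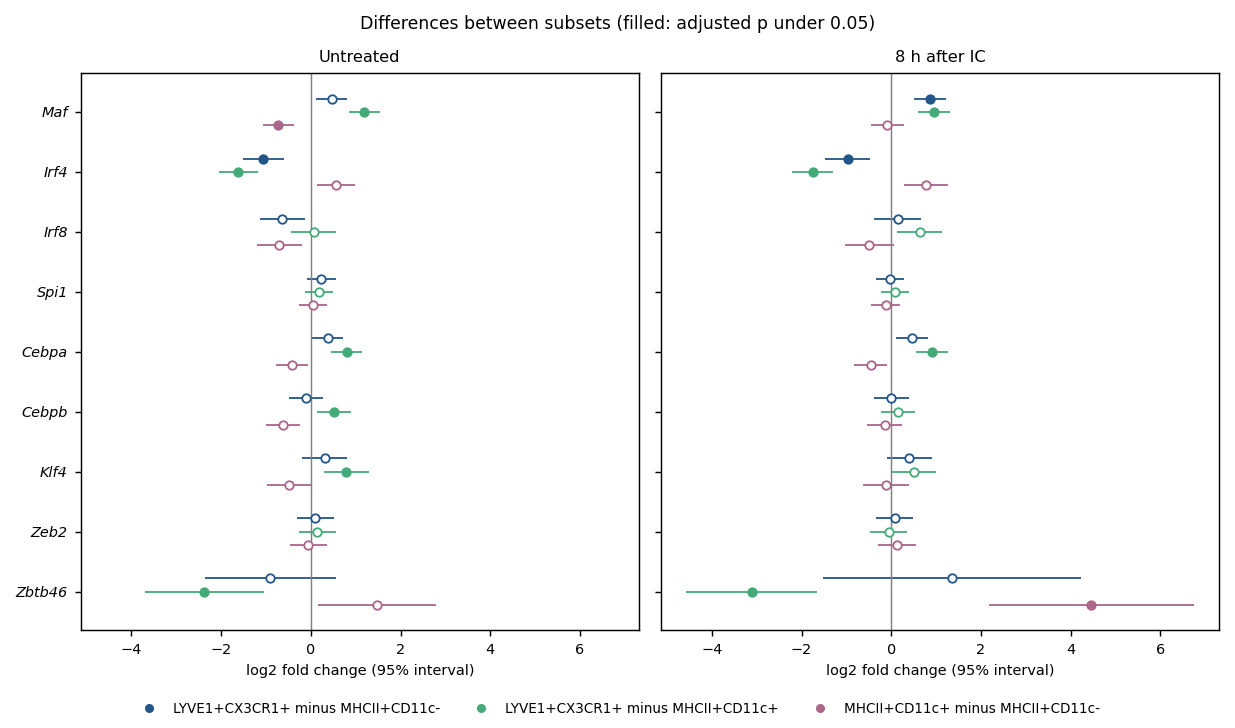
Log2 fold changes of the 9 members between subsets (horizontal axes), untreated and 8 h after IC, with 95% intervals from edgeR; filled points had an adjusted p under 0.05. Between LYVE1+CX3CR1+ and MHCII+CD11c+, *Maf* lay at 1.20 untreated and 0.95 after IC and *Irf4* at -1.62 and -1.75, and the fitted values of *Zbtb46* against MHCII+CD11c- after IC rest on 1 count there and depend on the prior count of the fit.

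After IC, *Maf* stood at 388, 357 and 359.7 CPM in LYVE1+CX3CR1+, 230.1, 136 and 226 in MHCII+CD11c- and 199, 210.0 and 164 in MHCII+CD11c+. LYVE1+CX3CR1+ lay above both MHCII+ subsets without overlap, 1.82-fold over MHCII+CD11c- (log2 0.87 ± 0.18, adjusted p = 0.00161) and 1.93-fold over MHCII+CD11c+ (log2 0.95 ± 0.17, adjusted p = 1.56e-04), while the MHCII+ subsets overlapped (log2 -0.08 ± 0.18, adjusted p = 0.877). The first call was lost with a surrogate variable in the fit (adjusted p = 0.118), and held without the shallowest library (log2 0.71, adjusted p = 0.00377).

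*Irf4* after IC stood at 42.9, 40.6 and 37.0 CPM in LYVE1+CX3CR1+, 47.1, 105 and 85.1 in MHCII+CD11c- and 142, 157 and 107 in MHCII+CD11c+. The untreated order was kept, without overlap. LYVE1+CX3CR1+ lay 3.36-fold under MHCII+CD11c+ (log2 -1.75 ± 0.22, adjusted p = 1.57e-06) and 1.96-fold under MHCII+CD11c- (log2 -0.97 ± 0.24, adjusted p = 0.0112). The latter was lost without MHCII+CD11c- IC replicate 3 (adjusted p = 0.0854), in a fit of only the libraries compared (0.102) and with a surrogate variable (0.246). Between the MHCII+ subsets the difference was not called (log2 0.78 ± 0.24, adjusted p = 0.0779), except without MHCII+CD11c- IC replicate 2 (log2 0.96, adjusted p = 0.0303), with DESeq2 (0.0448) or with at least 10 counts in every library (0.0446).

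*Cebpa* after IC stood at 379.5, 516 and 345 CPM in LYVE1+CX3CR1+ and 218, 247 and 197 in MHCII+CD11c+, without overlap and 1.87-fold apart (log2 0.91 ± 0.17, adjusted p = 2.82e-04). Against MHCII+CD11c- it was not called (adjusted p = 0.103), except with at least 10 counts in every library (0.0441). *Klf4* and *Cebpb* were called between no subsets after IC, and their libraries overlapped in each comparison. *Klf4* ranged from 686 to 947 CPM in LYVE1+CX3CR1+ and from 489 to 696 in MHCII+CD11c+ (adjusted p = 0.154), a difference that was called without MHCII+CD11c- IC replicate 2 (0.00642), a library of neither group, and also with no filter (0.0155), only the libraries compared (0.0134) or a block for pools of mice (0.0474).

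*Zbtb46* after IC had 9, 33 and 13 counts in MHCII+CD11c+ (13.9, 26.0 and 7.92 CPM), 6, 2 and 2 in LYVE1+CX3CR1+ (3.38, 1.05 and 0.960 CPM) and 1, 0 and 0 in MHCII+CD11c-. The MHCII+CD11c+ libraries lay above all others, and MHCII+CD11c+ was 8.62-fold over LYVE1+CX3CR1+ (adjusted p = 0.00202). Against MHCII+CD11c-, 55 counts stood against 1, a ratio of 25.4 in CPM with an exact 95% interval of 4.38 to 1022 that covers counting error only (edgeR adjusted p = 0.0261). This call was lost without MHCII+CD11c- IC replicate 2 (adjusted p = 0.0509) or 3 (0.159) or MHCII+CD11c+ IC replicate 2 (0.138). In MHCII+CD11c- IC replicate 2 the limit that 0 counts allow, 3 counts, was 11.3 CPM, above every untreated MHCII+CD11c- library.

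*Irf8* after IC stood at 157, 113 and 93.6 CPM in LYVE1+CX3CR1+, 91.5, 151 and 96.1 in MHCII+CD11c- and 77.1, 66.8 and 88.9 in MHCII+CD11c+. The MHCII+CD11c+ libraries lay below all others, 1.55-fold under LYVE1+CX3CR1+ (adjusted p = 0.0693) and 1.40-fold under MHCII+CD11c- (adjusted p = 0.395). The former was called without LYVE1+CX3CR1+ untreated replicate 3 (adjusted p = 0.0423), LYVE1+CX3CR1+ IC replicate 3 (0.0403) or MHCII+CD11c- IC replicate 2 (0.0396), and also with no filter (0.0380), at least 10 counts in every library (0.0366), only the libraries compared (0.0245) or a surrogate variable (0.0466). *Spi1* and *Zeb2* were not called, with adjusted p of at least 0.748 and 0.829.

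The second question was whether IC changed these factors. Averaged over the 3 subsets, *Irf4* was lower after IC, by 1.56-fold (log2 -0.64 ± 0.13, adjusted p = 0.00298), the 1 of 9 members called, where 6.21% of all genes were. This and the other averages over subsets count all libraries as independent. Subsets of the same treatment may have been sorted from the same mice, which the labels do not give, so these p-values could be too small. Within single subsets edgeR called 0 of 9 members in LYVE1+CX3CR1+ (0.464% of all genes), 0 of 9 in MHCII+CD11c- (1.06%) and 0 of 9 in MHCII+CD11c+ (0.673%), as did the Wald test of DESeq2, while 2, 4 and 2 members had an unadjusted p under 0.05. The libraries with and without IC did not overlap for 1, 4 and 2 members, and for 19.1%, 14.2% and 18.5% of all genes. The member medians were 0.04, -0.05 and 0.15 on the log2 scale, beside -0.02, -0.01 and -0.01 for all genes, and the second was 0.00 with *Zbtb46* after IC set to what 3 counts would give.

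*Irf4* ranged from 58.3 to 69.4 CPM in untreated LYVE1+CX3CR1+ macrophages and from 37.0 to 42.9 after IC. In MHCII+CD11c- the ranges were 108 to 150.0 and 47.1 to 105 CPM, and in MHCII+CD11c+ they were 169 to 218 and 107 to 157 CPM. In each of the 3 subsets every IC library lay below every untreated one, a pattern that 0.597% of all genes had.

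The log2 changes of *Irf4* were -0.65 ± 0.22, -0.74 ± 0.24 and -0.52 ± 0.21 in LYVE1+CX3CR1+, MHCII+CD11c- and MHCII+CD11c+ (adjusted p = 0.274, 0.129 and 0.352). The widest gap between subsets was 0.22 (95% interval -0.43 to 0.87, adjusted p = 0.938). The call of the average held in all 18 fits that left out a library, with changes from -0.69 to -0.57. In the same average 0 of 5 B cell markers were called and 1 of 7 dendritic cell markers, *Dpp4*, and 1 of 2 T and NK cell markers tested, *Cd2*, were lower after IC, while 5 of 9 neutrophil and 4 of 8 monocyte markers were higher (median log2 1.39 and 1.42). Their part in the *Irf4* change was not tested.

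**Figure D3:**
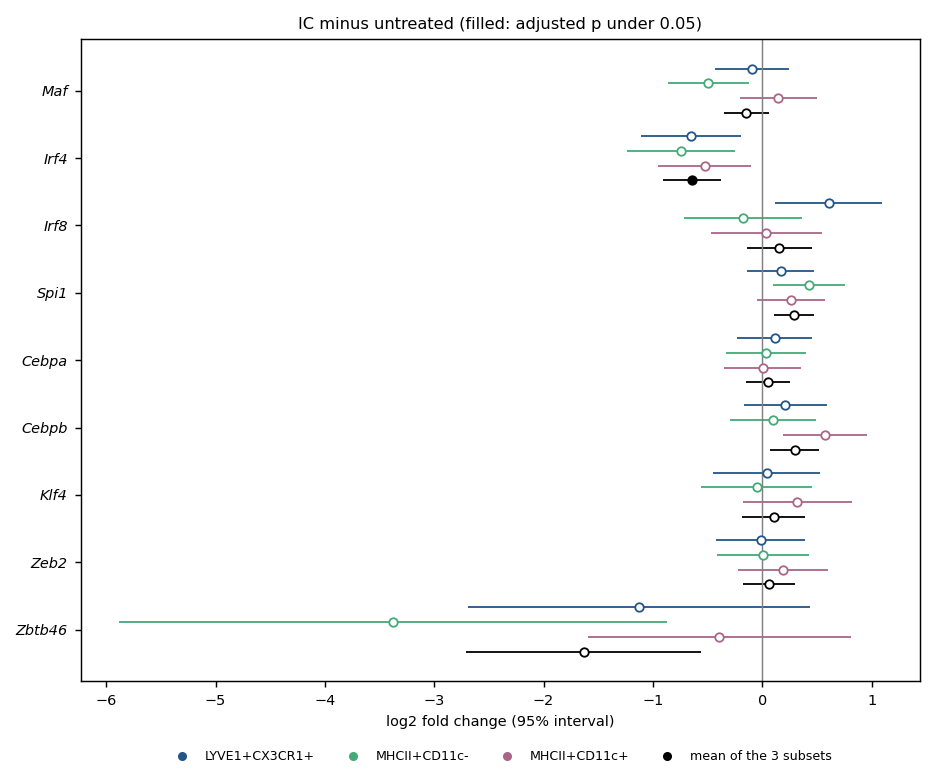
Log2 fold changes of the 9 members from untreated to 8 h after IC (horizontal axis), in each subset and averaged over the 3, with 95% intervals from edgeR; filled points had an adjusted p under 0.05. The average of *Irf4*, at -0.64, is the filled point, its 3 subsets lay at -0.65, -0.74 and -0.52, and the fitted value of *Zbtb46* in MHCII+CD11c- rests on 1 count after IC.

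The log2 ratio of *Irf4* to *Irf8* averaged -1.56 ± 0.28 after IC and -0.29 untreated in LYVE1+CX3CR1+, -0.54 ± 0.38 and 0.09 in MHCII+CD11c-, and 0.79 ± 0.49 and 1.37 in MHCII+CD11c+. The libraries overlapped only in MHCII+CD11c+. *Irf8* itself averaged 79.6 CPM in untreated LYVE1+CX3CR1+ macrophages and 121 after IC, with overlap and without a call (log2 0.61 ± 0.24, adjusted p = 0.402). Its response in LYVE1+CX3CR1+ minus that in MHCII+CD11c- was 0.78 ± 0.35 (adjusted p = 0.751).

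**Figure D4:**
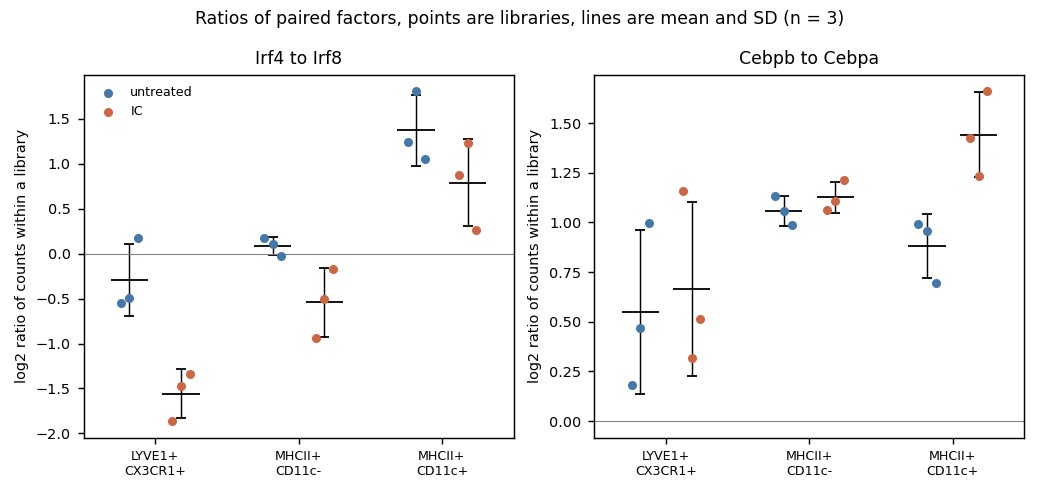
Log2 ratios of counts within each library for *Irf4* to *Irf8* and *Cebpb* to *Cebpa* (vertical axes), by subset and treatment, with the mean and SD of 3 libraries. *Irf4* to *Irf8* averaged 1.37 in untreated MHCII+CD11c+ and -1.56 in LYVE1+CX3CR1+ after IC, and *Cebpb* to *Cebpa* averaged 0.88 in untreated MHCII+CD11c+ and 1.44 after IC.

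*Zbtb46* was not called with IC. In MHCII+CD11c- it had 20 counts over the untreated libraries and 1 after IC, a ratio of 12.4 in CPM with an exact 95% counting interval of 1.98 to 514 (edgeR adjusted p = 0.176), and it had 19 and 10 counts in LYVE1+CX3CR1+ and 114 and 55 in MHCII+CD11c+. The average over the subsets had an adjusted p of 0.0625, or 0.0345 by DESeq2. It was also past the threshold without LYVE1+CX3CR1+ untreated replicate 3 (adjusted p = 0.0465), LYVE1+CX3CR1+ IC replicate 1 (0.0418), MHCII+CD11c- IC replicate 1 (0.0358) or MHCII+CD11c+ IC replicate 2 (0.0464).

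*Spi1*, the PU.1 gene, averaged 1.22-fold over its untreated level, just short of the threshold (log2 0.29 ± 0.09, adjusted p = 0.0531). In MHCII+CD11c- its untreated libraries, at 222, 210.3 and 222 CPM, lay below those after IC, at 282, 259.8 and 330.5 CPM (adjusted p = 0.187). The average was called without MHCII+CD11c- IC replicate 2 (adjusted p = 0.0174) or MHCII+CD11c+ IC replicate 1 (0.0338), by DESeq2 (0.00574), and also with its size factors in edgeR (0.0449), library totals (0.0373), at least 10 counts in every library (0.0288) or a surrogate variable (0.0180).

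*Cebpb* in MHCII+CD11c+ stood at 408, 366 and 429 CPM untreated and 586, 582 and 625 after IC, without overlap (log2 0.58 ± 0.19, adjusted p = 0.200). A fit of only these libraries called it (adjusted p = 0.0216). In the same libraries the 9 neutrophil markers summed to 129 to 558 CPM untreated and 893 to 2074 after IC, with 3 of 9 called, and 4 of 8 monocyte markers rose (*Plac8*, *Treml4*, *Vcan* and *Hp*). Their part in the *Cebpb* values was not tested. The average of *Cebpb* over the subsets was not called (adjusted p = 0.109), except without LYVE1+CX3CR1+ untreated replicate 3 (0.0412) or LYVE1+CX3CR1+ IC replicate 3 (0.0465).

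*Maf* in MHCII+CD11c- stood at 256, 329 and 268 CPM untreated and 230.1, 136 and 226 after IC, without overlap and without a call (log2 -0.49 ± 0.18, adjusted p = 0.181, or log2 -0.32, adjusted p = 0.350 without MHCII+CD11c- IC replicate 2). In that library *Klf4* was at 259.8 CPM, beside 816 and 818 in the others of its group, and *Zeb2* was at 312 beside 816 and 623. Without it their changes with IC in MHCII+CD11c- were 0.29 and 0.28, not called, where they were -0.05 and 0.01 with it.

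For *Cebpa*, *Klf4* and *Zeb2* the average change with IC was 0.05 (95% interval -0.15 to 0.25), 0.10 (-0.18 to 0.39) and 0.06 (-0.18 to 0.30) on the log2 scale. No member was called for a response that differed between subsets: edgeR and DESeq2 called 0 of 9 for LYVE1+CX3CR1+ against MHCII+CD11c-, where 0% of all genes were called, and 0 of 9 in the other 2 comparisons, where 0.00948% were. At an unadjusted p under 0.05 there were 1 (*Irf8*), 0 and 2 (*Maf* and *Zbtb46*, for MHCII+CD11c+ against MHCII+CD11c-).

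Of 36 other genes of the MAF, IRF, ETS, C/EBP, KLF, ZEB and ZBTB families, 34 were tested. Between untreated LYVE1+CX3CR1+ and MHCII+CD11c+ macrophages 6 were higher in LYVE1+CX3CR1+, 8 lower and 20 not called (median log2 0.12, beside -0.02 for all genes, of which 21.8% were called). Among the higher genes were *Fli1* and 4 KLF genes, *Klf2*, *Klf3*, *Klf9* and *Klf10*. *Klf2*, linked to quiescence, averaged 973 against 462 CPM (log2 1.08 ± 0.14, adjusted p = 2.85e-06). Among the lower genes was *Irf5*, an IRF of inflammatory macrophages, at 210.1 against 369 CPM (log2 -0.81 ± 0.16, adjusted p = 3.85e-04).

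Against MHCII+CD11c-, untreated LYVE1+CX3CR1+ macrophages had 1 of these 34 relatives higher and 6 lower (median log2 -0.18, beside -0.02 for all genes, of which 11.4% were called). MHCII+CD11c+ had 3 lower, *Ets1* and *Klf2* among them (median log2 -0.29, beside -0.01 for all genes, of which 3.49% were called). *Klf2* held in all 18 fits that left out a library and *Ets1* in 7 (adjusted p of up to 0.170), the latter being lost with a surrogate variable too (0.0685). Relatives typical of other cells were among the calls. *Spib*, an ETS factor of B cells and plasmacytoid dendritic cells, averaged 40.5 CPM in MHCII+CD11c-, 14.9 in MHCII+CD11c+ and 0.718 in LYVE1+CX3CR1+, the order of the summed B cell markers. *Cebpe*, a granulocyte factor, averaged 7.04 CPM in MHCII+CD11c+ and 3.14 in MHCII+CD11c- and was at 0 in all 6 LYVE1+CX3CR1+ libraries. The neutrophil markers had another order, with sums of 129 to 558 CPM in MHCII+CD11c+ and 692 to 1513 in MHCII+CD11c-. The *Cebpe* call of LYVE1+CX3CR1+ against MHCII+CD11c- (adjusted p = 0.0413) held in 7 of 18 fits that left out a library. It was lost with a block for replicate number (0.0567) or for pools of mice (0.0744). The part of such cells in these values was not tested.

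After IC, between LYVE1+CX3CR1+ and MHCII+CD11c+ 3 of the 34 relatives were higher in LYVE1+CX3CR1+, *Fli1* and *Klf2* among them, and 6 lower (median log2 -0.08, beside -0.04 for all genes, of which 19.7% were called). Against untreated, *Irf7*, an interferon-induced IRF, was the only relative called in single subsets. It rose from 62.4 to 160.0 CPM in MHCII+CD11c- (log2 1.34 ± 0.32, adjusted p = 0.0355) and from 55.0 to 148 CPM in MHCII+CD11c+ (log2 1.42 ± 0.29, adjusted p = 0.0171). The first call was lost without MHCII+CD11c- untreated replicate 1, 2 or 3 or MHCII+CD11c- IC replicate 1 (adjusted p = 0.0666 to 0.141) and the second lost without MHCII+CD11c+ untreated replicate 2 or 3 or MHCII+CD11c+ IC replicate 2 or 3 (adjusted p = 0.0577 to 0.128). The first was also lost with only the libraries compared (adjusted p = 0.0773) or a surrogate variable (0.0949). Its means in LYVE1+CX3CR1+ were 30.5 and 44.2 CPM (adjusted p = 0.708). Averaged over the subsets *Irf7* rose (log2 1.10 ± 0.18, adjusted p = 3.23e-04) and *Irf1*, another IRF of the interferon response, fell (log2 -0.57 ± 0.10, adjusted p = 0.00137). *Klf6* fell too (log2 -0.30 ± 0.09, adjusted p = 0.0415), and was called in 6 of 18 fits that left out a library (adjusted p of up to 0.101). Its call was lost with library totals (0.0810), no filter (0.0559) or a surrogate variable (0.0787). These were 3 of 34 relatives (median log2 -0.05, beside -0.02 for all genes, of which 6.21% were called).

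Of 55 further factors of myeloid and dendritic cells, 50 were tested. Between untreated LYVE1+CX3CR1+ and MHCII+CD11c+ macrophages 6 were higher in LYVE1+CX3CR1+ and 16 lower (median log2 -0.41, beside -0.02 for all genes, of which 21.8% were called). *Ciita*, the master regulator of MHC class II, averaged 1.26 against 168 CPM, which follows the sort on MHCII and is no independent result. *Runx3*, a RUNX factor of lymphoid and dendritic cells, averaged 1.30 against 48.3 CPM (adjusted p = 7.06e-06). Between the MHCII+ subsets 4 were higher in MHCII+CD11c+ and 0 lower: *Nr4a2* and *Nr4a3*, orphan nuclear receptors, *Bhlhe40* and *Hif1a*, the hypoxia factor (median log2 -0.05, beside -0.01 for all genes, of which 3.49% were called). The calls held in 15, 6, 15 and 15 of 18 fits that left out a library, *Nr4a2* being lost without MHCII+CD11c- untreated replicate 2 or 3 or MHCII+CD11c+ untreated replicate 3 (adjusted p = 0.0620 to 0.118), *Bhlhe40* lost without MHCII+CD11c+ untreated replicate 1 or MHCII+CD11c- untreated replicate 2 or 3 (adjusted p = 0.0626 to 0.0841) and *Hif1a* lost without MHCII+CD11c- untreated replicate 1 or 3 or MHCII+CD11c+ untreated replicate 1 (adjusted p = 0.0633 to 0.0832), with an adjusted p of up to 0.209 for *Nr4a3*. With a surrogate variable *Nr4a2* (adjusted p = 0.0776), *Nr4a3* (0.330) and *Bhlhe40* (0.0846) were lost, and with library totals *Nr4a3* (0.0579).

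With IC, *Nr1h3*, the oxysterol receptor LXRα, was called in both MHCII+ subsets. It rose from 15.4 to 83.3 CPM in MHCII+CD11c- (log2 2.30 ± 0.50, adjusted p = 0.0188) and from 7.27 to 36.9 CPM in MHCII+CD11c+ (log2 2.31 ± 0.49, adjusted p = 0.0212). The first call was lost without MHCII+CD11c- untreated replicate 1, 2 or 3 or MHCII+CD11c- IC replicate 2 (adjusted p = 0.0512 to 0.0830) and the second lost without MHCII+CD11c+ untreated replicate 2 or 3 or MHCII+CD11c+ IC replicate 1 or 3 (adjusted p = 0.0815 to 0.111). The first was also lost with only the libraries compared (adjusted p = 0.0804) or a surrogate variable (0.144). *Runx1*, a factor of blood cell development, fell in MHCII+CD11c+ (log2 -0.80 ± 0.18, adjusted p = 0.0366), a call lost in 6 of 18 fits that left out a library (adjusted p = 0.0510 to 0.231), with library totals (0.0626) and with a surrogate variable (0.0999). Averaged over the subsets 2 of the 50 rose, *Nr1h3* among them, and 5 fell, *Runx1*, *Rbpj*, *Notch2*, *Bach1* and *Ahr* (median log2 -0.07, beside -0.02 for all genes, of which 6.21% were called). *Ahr*, the aryl hydrocarbon receptor, changed by -1.16 ± 0.29 (adjusted p = 0.0142, but 0.0587 with a surrogate variable), and *Rbpj*, the nuclear effector of Notch receptors, by -0.48 ± 0.10 (adjusted p = 0.00319).

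Of 29 genes known to be controlled by 1 or more of the members, 28 were tested. In untreated LYVE1+CX3CR1+ macrophages 8 were higher than in MHCII+CD11c+, 12 were lower and 8 were not called (median log2 -0.46, beside -0.02 for all genes, of which 21.8% were called). Among the lower were *Ciita*, which follows the sort on MHCII, and *Csf3r*, a neutrophil marker. *Ciita*, *Nr1h3* and *Id2* are also among the further factors above. The part of the members in these differences was not tested. *C1qa*, a complement gene linked to c-MAF, averaged 3066 CPM in LYVE1+CX3CR1+, 1999 in MHCII+CD11c- and 1081 in MHCII+CD11c+, and was called in all 3 comparisons (adjusted p = 0.00385, 1.09e-08 and 4.15e-04). It is also 1 of the macrophage markers used to check the sort.

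Between the untreated MHCII+ subsets 4 of these 28 genes were higher in MHCII+CD11c+, 4 lower and 20 not called, where 3.49% of all genes were called. *Chil3*, at 10.45 CPM in MHCII+CD11c+ and 52.6 in MHCII+CD11c-, *Retnla* and *Mrc1* were among those not called. *Ccl17* and *Ccl22*, chemokines linked to IRF4 in IL-4-responsive cells, were higher in MHCII+CD11c+ than in either other subset. *Ccl17* averaged 67.0 CPM there and was at 0 in every untreated library of the other subsets. *Ccl22* averaged 61.8 CPM, against 0.340 in MHCII+CD11c- and 0 in LYVE1+CX3CR1+. So low in the other subsets, both chemokines passed the filter mainly through MHCII+CD11c+, and their calls are no independent result. *Irf4* itself was not called between the untreated MHCII+ subsets (adjusted p = 0.158). The dendritic cell markers were also highest in MHCII+CD11c+. The part of *Irf4* or of such cells was not tested. After IC, *Ccl17* averaged 60.4 and *Ccl22* 126 CPM in MHCII+CD11c+, neither change being called (adjusted p = 0.968 and 0.474).

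The profiles nearest to that of *Irf4* over the 18 libraries were those of *Gbp3* and *Lifr*, the LIF receptor gene, at root mean square differences of 0.33 and 0.35 in log2 CPM, where *Irf4* varied by 0.79. *Lifr*, picked here for its likeness to *Irf4* in these libraries, was lower after IC on average (log2 -0.58 ± 0.11, adjusted p = 0.00232), which is no independent result. Nearest to *Zbtb46* were *Unc119* and *Ctdspl*, at 0.63 and 0.68, where *Zbtb46* varied by 1.32.

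With IC, *Msr1*, the scavenger receptor A gene and a known target of PU.1, rose in each subset. It went from 134 to 264 CPM in LYVE1+CX3CR1+ (log2 0.98 ± 0.19, adjusted p = 0.0152), from 80.8 to 226 in MHCII+CD11c- (log2 1.47 ± 0.22, adjusted p = 0.00104) and from 43.3 to 135 in MHCII+CD11c+ (log2 1.62 ± 0.21, adjusted p = 1.30e-04). The calls held in all 18 fits that left out a library in the MHCII+ subsets, and in LYVE1+CX3CR1+ were lost without any 1 of its own 6 libraries (adjusted p of up to 0.127). *Il1b*, a target of C/EBPβ and PU.1, rose from 148 to 462 CPM in MHCII+CD11c- (log2 1.67 ± 0.34, adjusted p = 0.0121), lost without MHCII+CD11c- untreated replicate 3 (adjusted p = 0.0744) or MHCII+CD11c- IC replicate 1 (0.0708). In LYVE1+CX3CR1+ it rose from 26.9 to 83.2 CPM (log2 1.60 ± 0.37, adjusted p = 0.0452), a call lost in 13 of 18 fits that left out a library (adjusted p of up to 0.425). Averaged over the subsets 8 of 28 rose, 2 fell (*Retnla* and *Lifr*) and 18 were not called (median log2 0.17, beside -0.02 for all genes, of which 6.21% were called). Neutrophils also express *Il1b*, and 5 of 9 neutrophil markers rose in that average. Their part was not tested.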

How the data were processed

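Bulk RNA-seq counts of 18 libraries (3 subsets, untreated or 8 h after IC, 3 libraries each) were analysed. The counts were deposited as raw reads per gene: per the labels and the study's methods, the authors prepared stranded total RNA libraries, trimmed with Trim Galore, checked with FastQC, aligned with HISAT2 to mm10 and counted with featureCounts. Tool versions, annotation and strand setting are not given in the sources used here.

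Genes with enough counts were kept, 10550 of 24421. The filter was edgeR filterByExpr, with a CPM cutoff worth 10 counts at the median library size and a minimum of 15 counts in all. All 18 libraries were fitted in 6 groups with TMM in edgeR 4.0.16 (R 4.3.3) by quasi-likelihood, with Benjamini-Hochberg adjustment over all genes and a threshold of 0.05. Log2 CPM used a prior count of 2, ratios of 0.5. Standard errors are the log2 fold change over the root of F. The test was run on simulated counts of independent libraries with known changes in LYVE1+CX3CR1+ IC only. That simulation held no other differences between subsets and no pairing, so it does not cover those features of the data. Alternatives were size factors of DESeq2 1.42.0 or library totals, the DESeq2 Wald test, other filters, only the libraries compared, replicate blocks, 1 surrogate variable (sva 3.50.0) and leaving out each library. The blocks were the replicate number over all libraries or, for pools of mice, within each treatment. The latter assumes that libraries of the same number and treatment share mice, which the labels do not give. With totals of 245903 to 2172358 counts, 3 counts were worth 1.44 to 11.3 CPM. Named are the members, up to 4 called genes of each list with the largest change in each comparison, the 2 profiles nearest to members spanning more than 1 log2, and markers; further genes beside a count were picked with their values known. The members and lists were chosen with earlier results of these data known. Replicates pool several mice. *Ly6g* of the neutrophil list was not analysed here. Promoter sequences are from RefSeq (GRCm38.p6), with entries for 7 of 9 members.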

Additional observations from a re-analysis of the deposited data

How the results depend on the processing

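Of 3100 fits of single members under alternatives, 3031 stayed on the same side of the threshold, 23 lost the call, 46 gained it and none of the called values changed sign (0 reversed). In 111 of the 3031 the sign changed with the threshold passed in neither fit. The number of members called between untreated LYVE1+CX3CR1+ and MHCII+CD11c- was 2 with library totals, DESeq2, at least 10 counts in every library or only the libraries compared, and 1 to 2 when a library was left out. Between untreated MHCII+CD11c+ and MHCII+CD11c- it was 2 with library totals, DESeq2, no filter, at least 10 counts or a block for pools of mice, 3 with only the libraries compared, and 0 to 3 when a library was left out. Between untreated LYVE1+CX3CR1+ and MHCII+CD11c+ it was 3 to 6 when a library was left out, the 3 without LYVE1+CX3CR1+ untreated replicate 3. After IC it was 1 with only the libraries compared and 0 with a surrogate variable for LYVE1+CX3CR1+ against MHCII+CD11c- (1 to 2 leaving out a library), where it was 3 with at least 10 counts. For LYVE1+CX3CR1+ against MHCII+CD11c+ it was 6 with no filter or only the libraries compared, 5 with the block for pools or a surrogate variable and 4 to 6 leaving out a library, and it was 2 with DESeq2 and 0 with only the libraries compared for MHCII+CD11c+ against MHCII+CD11c- (0 to 1). For IC in MHCII+CD11c+ it was 1 with only the libraries compared. For IC on average it was 2 with size factors of DESeq2, library totals, at least 10 counts or a surrogate variable, 3 with DESeq2 and 1 to 3 leaving out a library. The cause of these changes was not tested.

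The counts of all genes called that differed by more than 1.5 times from those reported, which are in parentheses, were as follows. With DESeq2, 581 (368) for the MHCII+ subsets untreated, 472 (300) for the MHCII+ subsets after IC, 154 (49) for IC in LYVE1+CX3CR1+, 280 (112) for IC in MHCII+CD11c-, 157 (71) for IC in MHCII+CD11c+, 12 (0) for the response of LYVE1+CX3CR1+ against MHCII+CD11c- and 11 (1) for the response of LYVE1+CX3CR1+ against MHCII+CD11c+. With no filter on low counts, 578 (368) for the MHCII+ subsets untreated, 465 (300) for the MHCII+ subsets after IC, 160 (49) for IC in LYVE1+CX3CR1+, 337 (112) for IC in MHCII+CD11c-, 250 (71) for IC in MHCII+CD11c+, 20 (0) for the response of LYVE1+CX3CR1+ against MHCII+CD11c-, 27 (1) for the response of LYVE1+CX3CR1+ against MHCII+CD11c+ and 29 (1) for the response of MHCII+CD11c+ against MHCII+CD11c-. With at least 10 counts in every library, 750 (1207) for LYVE1+CX3CR1+ against MHCII+CD11c- untreated, 1291 (2303) for LYVE1+CX3CR1+ against MHCII+CD11c+ untreated, 664 (1031) for LYVE1+CX3CR1+ against MHCII+CD11c- after IC and 1182 (2081) for LYVE1+CX3CR1+ against MHCII+CD11c+ after IC. With only the libraries compared, 460 (1031) for LYVE1+CX3CR1+ against MHCII+CD11c- after IC, 100 (300) for the MHCII+ subsets after IC, 272 (49) for IC in LYVE1+CX3CR1+, 19 (112) for IC in MHCII+CD11c-, 170 (71) for IC in MHCII+CD11c+, 4 (1) for the response of LYVE1+CX3CR1+ against MHCII+CD11c+ and 0 (1) for the response of MHCII+CD11c+ against MHCII+CD11c-. With the replicate number as a block, 0 (1) for the response of MHCII+CD11c+ against MHCII+CD11c-. With the pool of mice, assumed from the replicate number within each treatment, as a block, 2 (1) for the response of LYVE1+CX3CR1+ against MHCII+CD11c+ and 2 (1) for the response of MHCII+CD11c+ against MHCII+CD11c-. With 1 surrogate variable, 435 (1031) for LYVE1+CX3CR1+ against MHCII+CD11c- after IC and 2 (1) for the response of LYVE1+CX3CR1+ against MHCII+CD11c+. Over 18 pairs of libraries of the same number and treatment, deviations from the group mean correlated at -0.046 to 0.132 (median 0.036), 1 of them over 0.1. Over 36 pairs of the same treatment and different numbers they correlated at -0.13 to 0.078 (median -0.025). Pairing by number was thus weak at most but not absent by these values, and the reported fits used no block. With the replicate number as a block, the members called remained 1, 6 and 1 of 9 between the untreated subsets and 1 of 9 for IC on average. With the block within each treatment they were 1, 6 and 2 of 9 between the untreated subsets. A number shared by treated and untreated mice cannot account for mice shared by subsets, so it does not bear on the IC average. The block within each treatment was not fitted for IC against untreated. The low totals of MHCII+CD11c- IC replicates 1 and 2 and the few counts of *Zbtb46* limit what could be called.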
